A study of Mus musculus with 18 samples.

Results

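Induced cardiomyocyte-like cells (iCMs) are fibroblasts turned directly into heart muscle-like cells, without passing through a stem cell. The comparison described here sets 3 arrays of 4-week iCMs against 3 arrays of 2-week iCMs, 6 of the 18 arrays of the study, over all 19912 genes with a probe set of their own. All cells came from mice of the CD1 strain. The labels call the iCMs fibroblasts in which reprogramming succeeded, the design text calls them GFP+, and the counterparts are GFP- cells in which reprogramming failed, also taken at 4 weeks and at 2 weeks. Neonatal cardiomyocytes (CM) and neonatal cardiac fibroblasts (CF) complete the 6 groups of 3 arrays. The labels name neither the factors that were introduced nor the promoter that drives GFP, and give no age beyond neonatal. Arrays of 1 group are biological replicates in the wording of the design text; since no label names separate cultures, the p-values reflect array-to-array spread, which may be technical in part. Each array shows the RNA of a whole cell preparation, in which fewer cells of a type and less RNA per cell cannot be told apart.

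During normal heart development a cardiomyocyte assembles sarcomeres, the repeating contractile units, and a sarcoplasmic reticulum that releases and takes back calcium at each beat. After birth it turns from glucose towards fatty acids as its fuel, fills with mitochondria, leaves the cell cycle and replaces fetal protein isoforms with adult ones. Direct conversion of cardiac fibroblasts in mice was described with Gata4, Mef2c and Tbx5 as introduced factors and with GFP under the promoter of Myh6, the gene of the alpha-myosin heavy chain. The labels used here do not state either, and where a sort selects cells on a Myh6 reporter the level of Myh6 is in part set by the sort.

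The values were log2 intensities after RMA, a normalization that puts all arrays on a common scale. Median values per array lay between 7.32 and 7.44, and a level under 6.16 log2, which is the smallest of the arrays' 25th percentiles, is called background here. The arrays of each iCM group correlated with each other across genes at r = 0.990 to 0.995. Differences are 4 weeks minus 2 weeks in log2 units with the standard error (SE) of limma, and a gene is called at a limma p under 0.05 after Benjamini-Hochberg adjustment, which took in all 19912 genes. The label was checked against marker genes: the 8 cardiomyocyte markers averaged 11.91 log2 in 4-week iCMs and 11.31 log2 in 2-week iCMs, against 13.12 log2 in CM and 7.54 log2 in CF. The 8 macrophage markers stood at 9.68 log2 in 4-week iCMs and 10.17 log2 in 2-week iCMs, against 6.75 log2 in CM and 12.15 log2 in CF, so both iCM groups carried macrophage transcripts well above the level in CM, and the arrays labelled as fibroblasts carried more of them still. The 8 fibroblast markers averaged 7.63 log2 in 4-week iCMs and 8.39 log2 in 2-week iCMs, against 9.50 log2 in CM and 10.62 log2 in CF, and 7 of them fell. Of 3 lymphocyte markers, Cd79a and Ms4a1 were under background in both iCM groups. The 5 epicardial or mesothelial markers averaged 9.44 log2 in 4-week and 9.90 log2 in 2-week iCMs, above 7.24 log2 in CM and 8.03 log2 in CF. In the same order the 5 skeletal muscle markers averaged 8.25, 7.66, 7.41 and 7.06 log2. The 4 smooth muscle markers averaged 9.96, 9.82, 9.28 and 9.93 log2.

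Between 2 and 4 weeks iCMs gained transcripts of the sarcomere, of calcium handling and of mitochondrial energy supply, and lost transcripts of collagen-modifying enzymes, fibroblasts, macrophages, cytokines, cholesterol synthesis and cell division. In all 2297 genes were called, 11.5% of those tested. Of these 855 were higher at 4 weeks, 4.29% of genes, and 1442 were lower, 7.24% of genes. Quantile normalization moved this split to 1404 higher and 1526 lower, which raised the share of higher genes among those called to 47.9%, against 37.2% in the deposited values. Without the second 4-week array 1289 genes were called, and without the third 2-week array 1421. Most changes were small: the called genes had a median size of 1.37-fold. In the 1 probe set tested per gene, the largest rise was 5.09-fold (Nebl) and the largest fall with both means above background 3.28-fold (Lox). At least 2-fold, 39 genes were higher (0.196% of genes) and 62 lower (0.311% of genes). The median change over all genes was -0.01 log2.

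The changes ran along the difference between cardiomyocytes and fibroblasts, which is measured on other arrays. Between CM and CF 19.6% of genes were called higher in CM and 21.5% higher in CF. Among 298 genes called with at least a 4-fold higher level in CM, 87 rose between 2 and 4 weeks (29.2%) and 9 fell. Among 448 genes called with at least a 4-fold higher level in CF, 173 fell (38.6%) and 13 rose. In GFP- cells 44 of the same 298 genes rose (14.8%) and 19 fell (6.38%). Of the same 448 genes 77 fell there (17.2%) and 99 rose (22.1%). Over all genes 7.16% rose and 10.2% fell in GFP- cells. Of the 11743 genes not called between CM and CF, 305 rose (2.60%) and 440 fell (3.75%). Of the 39 genes that rose at least 2-fold, 29 were higher in CM, 2 were higher in CF and 8 were called in neither direction. Of the 62 that fell at least 2-fold, 43 were higher in CF, 5 in CM and 14 in neither.

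An array's position between the end points was taken over those genes as a median, with each gene placed on a scale on which the CF mean is 0% and the CM mean 100%. For genes high in CM the positions were 32.6%, 39.1% and 32.1% in the 4-week iCM arrays, against 18.2%, 24.3% and 21.2% in the 2-week iCM arrays. The groups did not overlap, and the means were 34.6 ± 3.89% at 4 weeks and 21.3 ± 3.05% at 2 weeks (SD, n = 3 each). For genes high in CF the positions were 64.1%, 60.1% and 63.4% at 4 weeks, against 57.0%, 50.3% and 50.1% at 2 weeks. The differences were 13.3 and 10.1 percentage points, each with p = 0.1 in a two-sided exact permutation test, the smallest that 3 against 3 arrays allow. GFP- cells stood near the CF mean at both times, at 2.77 ± 0.37% (4 weeks) and 3.02 ± 0.97% (2 weeks) for genes high in CM. Their 8 fibroblast markers averaged 8.08 log2 at 4 weeks and 8.39 log2 at 2 weeks, under the 10.62 log2 of CF, and their 8 macrophage markers 12.34 and 12.38 log2, beside 12.15 log2 in CF. The part that macrophage transcripts have in the CF end of the scale was not tested.

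**Figure D1:**
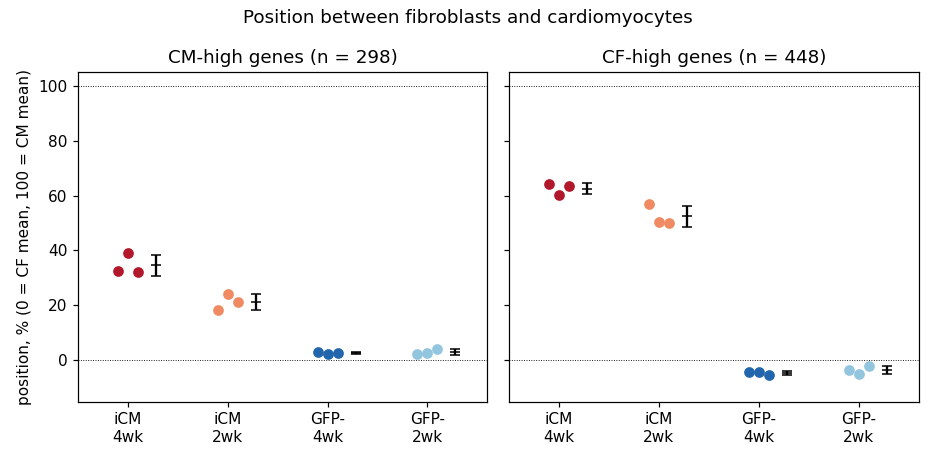
Position of each array between cardiac fibroblasts (0%) and neonatal cardiomyocytes (100%), in percent, for 298 genes high in CM (left) and 448 genes high in CF (right); points are arrays, and the bars beside them are means ± SD (n = 3). The 4-week iCM arrays lie above the 2-week iCM arrays in both panels, at 34.6% against 21.3% and at 62.5% against 52.4%, while GFP- cells lie near 0% at both times.

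The contractile apparatus gained transcripts of some of its parts, while others read near the top of the scale at both times. Of 17 measured thick filament, titin and M-band genes 5 rose and 0 fell (median change 0.23 log2), and of 15 thin filament genes 6 rose and 0 fell (median 0.21 log2). The first count was 3 without the third 2-week array, and the second 3 without the first 2-week array or the third 4-week array. Nebl encodes nebulette, the cardiac nebulin relative that ties thin filaments to the Z-disc. Its probe set read 9.16, 9.45 and 9.29 log2 in the 4-week iCM arrays, against 6.80, 7.11 and 6.96 log2 in the 2-week arrays. The 2-week arrays lay close to the CF mean of 6.54 log2 and all 3 4-week arrays stood above them, still short of the CM mean of 12.19 log2. The rise was 2.35 ± 0.11 log2 (SE), 5.09-fold, with an adjusted p of 1.02e-10, and it was the largest rise among the probe sets tested, of which each gene has 1. A second Nebl probe set changed by 0.32 log2 and was not called, so the rise holds for the part of the gene that the first one reads.

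Other sarcomere genes rose by less. Lmod3, leiomodin 3, which helps start thin filaments, rose by 0.79 ± 0.12 log2 (adjusted p = 0.000323), and Tmod1, which caps their pointed ends, by 0.72 ± 0.12 log2 (adjusted p = 0.000613). A second Tmod1 probe set changed by -0.11 log2 and was not called. Myom1, the M-band protein myomesin, read 10.31, 10.61 and 10.21 log2 in the 4-week iCM arrays, against 8.69, 9.94 and 9.46 log2 in the 2-week arrays. It rose by 1.01 ± 0.22 log2 (adjusted p = 0.00473), and by 0.67 log2 without the first 2-week array, which lay lowest. In the Z-disc, Actn2, the sarcomeric alpha-actinin, was 10.06, 10.12 and 9.78 log2 in the 4-week iCM arrays, against 8.70, 9.01 and 8.82 log2 in the 2-week arrays. The groups stood clear of each other, and the gene was 2.21-fold higher (1.15 ± 0.12 log2, adjusted p = 6.12e-06). Of 26 Z-disc and costamere genes 4 rose and 1 fell (median 0.06 log2), and of 15 intercalated disc genes 2 rose and 1 fell (median 0.22 log2), with 0 rises without the second or the third 4-week array. Dmd, dystrophin, which ties the contractile apparatus to the membrane, rose by 0.80 ± 0.20 log2 (adjusted p = 0.0106), and Xirp2, an actin-binding protein of the intercalated disc, by 0.74 ± 0.20 log2 (adjusted p = 0.0185). Both calls were lost without the first 2-week array (adjusted p = 0.0605 and 0.0896) and without the second 4-week array (adjusted p = 0.0633 and 0.122). Mlip, a protein that binds lamins in heart and muscle, was 7.48, 7.74 and 6.99 log2 in the 4-week iCM arrays, against 5.94 to 6.14 log2 in the 2-week arrays. All its 2-week arrays were under background, so it rose at least 2.37-fold (adjusted p = 9.38e-06), with a CM mean of 10.86 log2. The rises in the Z-disc list came to 2 without the first 2-week array or the second 4-week array. The Z-disc gene that fell was Pdlim1, an adaptor on alpha-actinin that fibroblasts also use, by 1.33 ± 0.22 log2 (adjusted p = 0.000732), and its second probe set fell by 1.26 log2.

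Tnnt2 read near the ceiling of the arrays at both times, and Myl2 stayed low. Tnnt2, cardiac troponin T, averaged 13.79 ± 0.03 log2 in 4-week iCMs, against 13.73 ± 0.04 log2 in 2-week iCMs (SD, n = 3 each), near the array maximum of 13.82 to 13.95 log2, and changed by 0.06 ± 0.16 log2 (adjusted p = 0.884). Actc1, cardiac actin, changed by 0.21 ± 0.26 log2 (adjusted p = 0.698) and Myl7, the atrial light chain, by 0.41 ± 0.16 log2 (adjusted p = 0.114); in both the 3 4-week arrays lay above the 2-week arrays. Tnni3, the adult cardiac troponin I, was higher by 0.46 ± 0.14 log2 (adjusted p = 0.0328), a call lost without the second 4-week array (adjusted p = 0.128) and without any of 3 other iCM arrays. The fetal troponin I gene Tnni1 changed by 0.16 ± 0.13 log2 (adjusted p = 0.498). Myl2, the ventricular light chain, stood at 7.05 log2 in 4-week iCMs and 6.83 log2 in 2-week iCMs (adjusted p = 0.0792), far under its CM mean of 13.70 log2 and no higher than the CF mean of 7.38 log2.

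**Figure D2:**
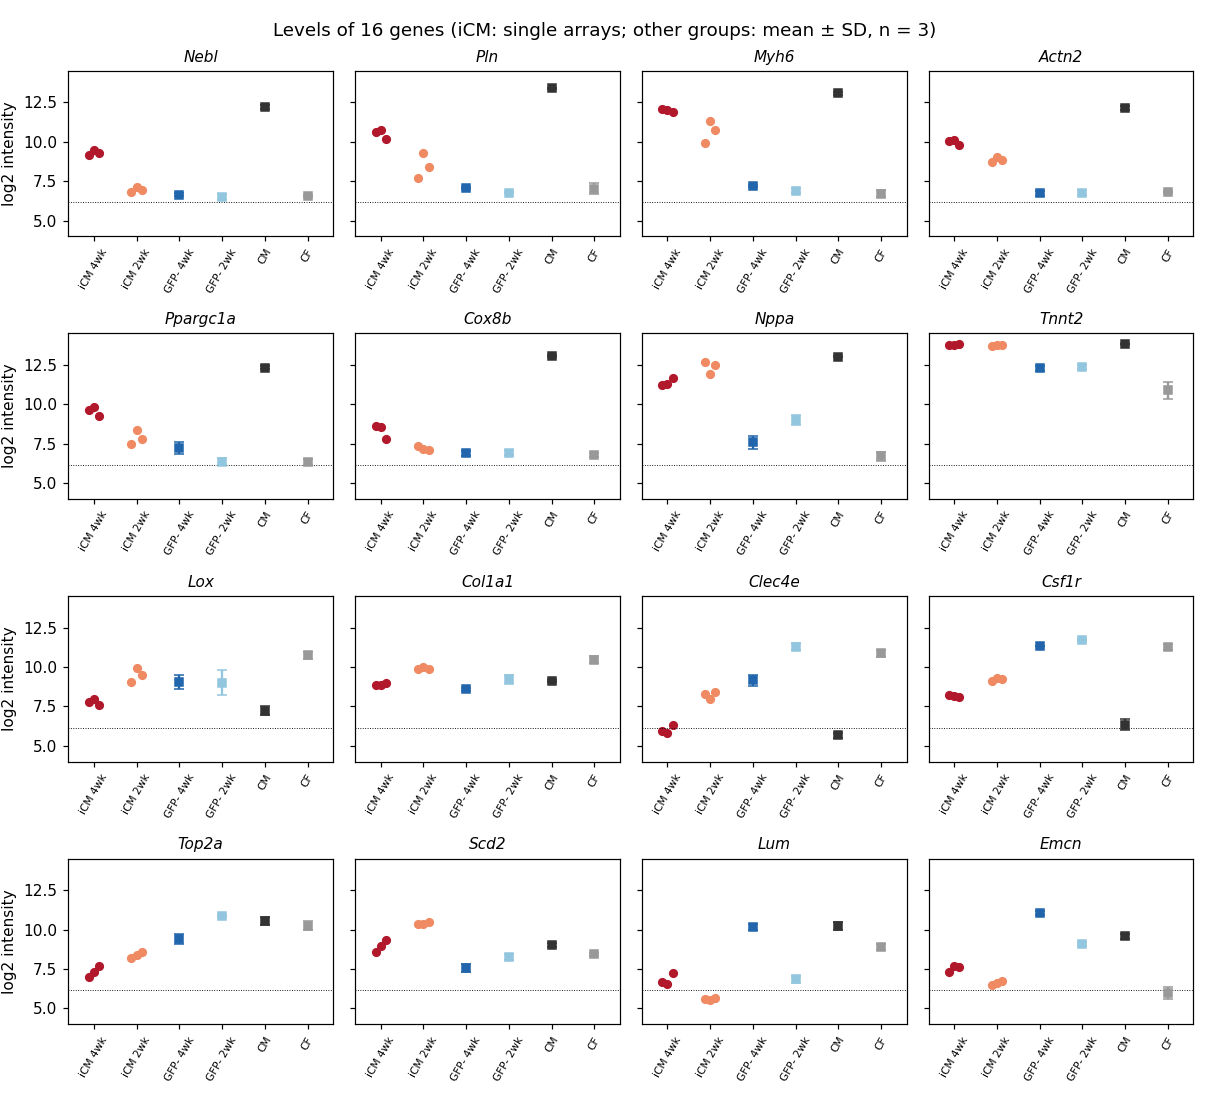
Log2 intensity of 16 genes in the 6 groups; iCM points are single arrays, squares with bars are means ± SD of the other groups (n = 3), and the dotted line is the background level of 6.16 log2. Nebl, Pln, Myh6, Actn2, Ppargc1a and Cox8b are higher in 4-week than in 2-week iCMs and below CM, Nppa is lower, Tnnt2 stays at the ceiling, and Lox, Col1a1, Clec4e, Csf1r, Top2a and Scd2 are lower at 4 weeks.

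Transcripts of the Myh6 locus on chromosome 14 rose together. Myh6 itself read 12.09, 12.02 and 11.89 log2 in the 4-week iCM arrays, against 9.93, 11.29 and 10.73 log2 in the 2-week arrays. All 4-week arrays lay above the 2-week arrays, the lowest 2-week value being that of the first array. The rise was 1.35 ± 0.21 log2, 2.54-fold (adjusted p = 0.000383), and 0.99 log2 without that array, with a CM mean of 13.07 log2 and a CF mean of 6.70 log2. Mhrt, the long noncoding RNA antisense to the neighbouring gene Myh7, was 9.26, 9.21 and 9.10 log2 in the 4-week iCM arrays, against 7.49, 8.03 and 7.74 log2 in the 2-week arrays. It rose 2.71-fold (1.44 ± 0.13 log2, adjusted p = 1.72e-06), and GFP- cells changed by 0.17 ± 0.13 log2. The probe set of Mir208a, the heart-specific microRNA inside Myh6, read 6.65, 6.95 and 6.61 log2 in the 4-week iCM arrays, against 5.57, 5.59 and 5.60 log2 in the 2-week arrays. Its 2-week arrays were under background, so the fold is at least 1.49 (adjusted p = 1.81e-05). Myh7, the beta-myosin of the fetal mouse ventricle, also rose, by a smaller 0.43 ± 0.08 log2 (adjusted p = 0.00149). A probe set inside or opposite a gene can also read RNA of that gene, and the part of Myh6 RNA in the Mir208a signal and of Myh7 RNA in the Mhrt signal was not tested.

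Mir208a lies at chr14:54949060-54949142 on the minus strand of GRCm38.p6, inside Myh6 at chr14:54941921-54968017 (RefSeq). One mature strand of this hairpin, the 3p strand, is shown to identify the gene, with the seed, bases 2 to 8 from the 5′ end, in capitals.
miR-208a-3p: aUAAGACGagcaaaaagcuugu
The promoter table lists 1 start for Myh6, which lies inside the gene span above, since that span reaches further upstream. The 150 bases before the listed start, chr14:54966608-54966757 on the minus strand of GRCm38.p6, are given next as the promoter of the filament gene with a single listed start and the largest rise.
Myh6: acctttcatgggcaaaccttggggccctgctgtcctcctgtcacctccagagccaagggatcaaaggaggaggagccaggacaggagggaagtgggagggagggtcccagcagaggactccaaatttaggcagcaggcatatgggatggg
None of the motifs searched on both strands (CCAAT and TTTGAA, as well as the TATA box by the letters TATAAA, the MEF2 site and the CArG box) was in the stretch shown, which would have carried capitals. TATAAA followed just after it, beginning at the second base counted from the listed start. In the 300-base windows of 29 thick and thin filament promoters the CArG box was present in 5 (17.2%), against 1.57% of 27025 promoters, and the MEF2 site in 3 (10.3%), against 3.26%. The MEF2 share was not particular to filament genes, as 3 of 32 mitosis promoters (9.38%) held the site too. Among 29 replication promoters 0 held it. The CArG box was in 0 of the mitosis and 1 of the replication promoters.

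Calcium handling changed at the control proteins of the calcium store. Of 19 genes of the sarcoplasmic reticulum 6 rose (31.6%) and 2 fell (10.5%), beside 4.29% higher and 7.24% lower over all genes. The median change was 0.17 log2. The members described below rose or were not called, and the 2 that fell are not named here. Pln encodes phospholamban, the brake on the calcium pump. It read 10.61, 10.72 and 10.20 log2 in the 4-week iCM arrays, against 7.70, 9.27 and 8.38 log2 in the 2-week arrays. The 2-week arrays were spread over more than 1 log2 unit and every 4-week array lay above them. The rise was 2.06 ± 0.25 log2, 4.17-fold (adjusted p = 3.45e-05), and 1.68 log2 without the first 2-week array. The CM mean was 13.39 log2. Trdn, triadin, which anchors the calcium store proteins to the release channel, was 12.35, 12.54 and 12.19 log2 in the 4-week iCM arrays, against 10.42, 11.09 and 10.61 log2 in the 2-week arrays. All 19 probe sets of the gene rose, by 1.00 to 2.81 log2. The one tested was 3.15-fold higher (adjusted p = 1.72e-06) and near its CM mean of 12.87 log2, and it rose in GFP- cells too, by 1.00 ± 0.14 log2 (adjusted p = 7.54e-05). Hrc, a calcium-binding protein of the store, rose by 1.44 ± 0.21 log2 (adjusted p = 0.00019), and by 1.13 log2 without the first 2-week array. Srl, sarcalumenin, another calcium-binding protein of the store, rose by 0.80 ± 0.20 log2 (adjusted p = 0.0144), a call lost without the first or the third 2-week or the second 4-week array (adjusted p up to 0.082). Ryr2, the release channel itself, had a smaller rise of 0.42 ± 0.10 log2 (adjusted p = 0.00988) from a high level, while the pump Atp2a2 changed by 0.12 ± 0.07 log2 (adjusted p = 0.292) and sarcolipin (Sln), the atrial counterpart of phospholamban, by 0.79 ± 0.26 log2 (adjusted p = 0.0547).

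Among 25 surface ion channel genes 3 rose and 1 fell (median 0.03 log2), and the 3 were potassium channels of the inward rectifier family. The rises do not stand for that family, since an inward rectifier gene outside the list was called lower, by 1.27 log2. A potassium channel gene of another family, also outside the list, was called higher by 1.33 log2. Kcnj3 and Kcnj5 encode the paired subunits of the acetylcholine-gated channel of atrial and pacemaker cells. Kcnj3 was 8.60, 8.67 and 7.69 log2 in the 4-week iCM arrays, against 6.90, 7.56 and 6.96 log2 in the 2-week arrays. It rose by 1.18 ± 0.22 log2 (adjusted p = 0.00154), and Kcnj5 by 0.69 ± 0.14 log2 (adjusted p = 0.00383). Kcnj2, which sets the resting potential of ventricular cells, averaged 6.80 ± 0.05 log2 in 4-week iCMs, against 6.05 ± 0.27 log2 in 2-week iCMs (SD, n = 3 each). The 2-week mean was under background, so the fold is at least 1.49 (adjusted p = 0.0008). The member that fell was Cacna1c, the L-type calcium channel, by 0.40 ± 0.12 log2 (adjusted p = 0.034), a call lost without the second 2-week array (adjusted p = 0.179) and without any of 3 other iCM arrays. Of 14 atrial-enriched genes 4 rose and 1 fell, with 2 rises without the second 4-week array, and of 10 ventricular-enriched genes 1 rose and 0 fell, Kcnj2.

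The lists of adult-type and fetal-type genes, which share members with the lists above, both held rises. Of 15 adult-type genes 7 rose and 0 fell (median 0.35 log2), and of 12 fetal-type genes 4 rose and 2 fell (median 0.11 log2), with 2 rises without the first 2-week array or the third 4-week array. Cox8b, the heart and muscle isoform of a cytochrome oxidase subunit, was 8.62, 8.56 and 7.82 log2 in the 4-week iCM arrays, against 7.38, 7.20 and 7.08 log2 in the 2-week arrays. It rose by 1.11 ± 0.16 log2 (adjusted p = 0.000149), with a CM mean of 13.06 log2. The fetal-type genes that fell were the natriuretic peptides, hormones that the fetal and the strained heart release. Nppa read 11.21, 11.30 and 11.67 log2 in the 4-week iCM arrays, against 12.66, 11.90 and 12.52 log2 in the 2-week arrays, and Nppb 9.77, 9.92 and 9.94 log2 at 4 weeks, against 11.23, 10.47 and 11.01 log2 at 2 weeks. In both genes the arrays did not overlap and the first 2-week array was the highest. Nppa fell by 0.96 ± 0.21 log2 (adjusted p = 0.00504) and Nppb by 1.03 ± 0.16 log2 (adjusted p = 0.000383); without the first 2-week array the changes were -0.81 and -0.87 log2. Nppa also fell in GFP- cells, by 1.42 ± 0.21 log2 (adjusted p = 8.8e-05). The first 2-week array was thus the lowest for Pln, Hrc, Myh6 and Myom1 and the highest for both peptides.

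Few transcription regulators of the heart were called. Of 37 measured, 3 rose (8.11%) and 0 fell (median 0.04 log2), beside 4.29% of all genes higher. Esrrg, an orphan nuclear receptor that drives mitochondrial genes, was 8.84, 8.95 and 8.56 log2 in the 4-week iCM arrays, against 7.85, 8.28 and 7.96 log2 in the 2-week arrays. It rose by 0.75 ± 0.14 log2 (adjusted p = 0.00183), and Meis1, a homeobox factor tied to the end of cardiomyocyte division, by 0.46 ± 0.10 log2 (adjusted p = 0.00504) and Prox1 by 0.45 ± 0.10 log2 (adjusted p = 0.00516). Gata4 changed by -0.10 ± 0.13 log2 (adjusted p = 0.709), Mef2c by 0.04 ± 0.13 log2 (adjusted p = 0.919) and Tbx5 by -0.32 ± 0.11 log2 (adjusted p = 0.0589). All 3 stood above their CM means in both iCM groups, for Tbx5 at 11.27 log2 at 4 weeks and 11.59 log2 at 2 weeks, against 9.32 log2 in CM. The arrays cannot tell endogenous from introduced transcripts where a probe set reads both, and the labels name no introduced gene. Nkx2-5 changed by 0.26 ± 0.11 log2 (adjusted p = 0.137). Without the first 2-week array Nkx2-5 was called, at 0.42 log2 (adjusted p = 0.00564), and without the third 2-week array its change was 0.13 log2.

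Energy genes rose in small steps. Ppargc1a, the coactivator that turns on mitochondrial genes, read 9.64, 9.85 and 9.24 log2 in the 4-week iCM arrays, against 7.48, 8.36 and 7.83 log2 in the 2-week arrays. The 4-week arrays lay clear of the 2-week arrays and short of the CM mean of 12.33 log2. The rise was 1.69 ± 0.21 log2, 3.23-fold (adjusted p = 4.19e-05), a second probe set gave 1.37 log2, and GFP- cells rose by 0.89 ± 0.21 log2 (adjusted p = 0.00496). Of 29 genes of fatty acid oxidation and its regulators 7 rose and 0 fell (median 0.14 log2), and 4 rose without the first 2-week array. Among the rises were Acadl, a long-chain acyl-CoA dehydrogenase, by 0.49 ± 0.09 log2 (adjusted p = 0.00209), and Hadhb, of the trifunctional enzyme, by 0.49 ± 0.10 log2 (adjusted p = 0.00346). Cd36, the fatty acid transporter, rose by 1.04 ± 0.16 log2 (adjusted p = 0.000432) but rose by 1.50 ± 0.16 log2 in GFP- cells.

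Genes of the respiratory chain and citric acid cycle rose by less. Of 35 complex I genes 7 rose and 0 fell (median 0.18 log2); without the first 2-week array or the second 4-week array 0 of them were called, and without the third 2-week or the third 4-week array 3 and 2. Of 43 genes of complexes II to V 10 rose and 0 fell (median 0.16 log2), and without the third 2-week array or the second 4-week array 6 and 5 rose. Cox7a1, a muscle subunit of cytochrome oxidase, was 9.42, 9.70 and 9.18 log2 in the 4-week iCM arrays, against 8.57, 8.95 and 8.63 log2 in the 2-week arrays. It rose by 0.72 ± 0.14 log2 (adjusted p = 0.00189), and fell in GFP- cells by 0.66 ± 0.14 log2, a difference of 1.37 ± 0.19 log2 between the time changes (adjusted p = 0.000334). Of 25 citric acid cycle and pyruvate entry genes 6 rose and 1 fell, with Idh3a, of the rate-limiting isocitrate dehydrogenase, up by 0.53 ± 0.11 log2 (adjusted p = 0.00363) and Mdh1 by 0.60 ± 0.10 log2 (adjusted p = 0.00059). In GFP- cells, where 7.16% of all genes rose and 10.2% fell, 11 of the same 25 genes fell and 1 rose.

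Sugar and glycogen genes moved in both directions. Of 31 genes 7 rose and 3 fell (median 0.09 log2), with 3 to 5 rises when each iCM array was left out. Ppp1r3a, the muscle subunit that brings a phosphatase to glycogen, read 8.59, 9.13 and 8.55 log2 in the 4-week iCM arrays, against 6.53, 6.84 and 6.73 log2 in the 2-week arrays. The 2-week arrays lay near the CF mean of 5.99 log2, and the rise was 4.16-fold (2.06 ± 0.16 log2, adjusted p = 5.02e-07). Pgam2, the muscle phosphoglycerate mutase, rose by 0.75 ± 0.13 log2 (adjusted p = 0.000939) and reached 12.48 log2, against a CM mean of 12.61 log2. Ckb, the brain-type creatine kinase, fell by 0.61 ± 0.11 log2 (adjusted p = 0.00113), and Ckm, the muscle form, changed by 0.21 ± 0.09 log2 (adjusted p = 0.163).

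Some of the largest rises were in genes that stood above their CM mean in 4-week iCMs. Vsnl1, visinin-like 1, a neuronal calcium sensor, was 10.40, 10.58 and 10.57 log2 in the 4-week iCM arrays, against 8.23, 8.10 and 8.54 log2 in the 2-week arrays. It rose 4.68-fold (adjusted p = 4.49e-06) and stood above its CM mean of 9.37 log2 only at 4 weeks. Tnnt3, the fast skeletal troponin T, averaged 12.42 ± 0.12 log2 in 4-week iCMs, against 11.26 ± 0.23 log2 in 2-week iCMs (SD, n = 3 each), 2.23-fold higher (adjusted p = 4.94e-06), with 8.98 log2 in CM and 8.62 log2 in CF. Myl1, the fast skeletal light chain, was 8.41, 8.53 and 8.12 log2 in the 4-week iCM arrays, against 6.81, 7.08 and 6.56 log2 in the 2-week arrays (change 1.54 ± 0.20 log2, adjusted p = 5.83e-05, CM mean 7.24 log2). These were the 2 genes that rose among 25 skeletal muscle genes, of which 1 fell. Rgs7, a brake on G protein signalling, averaged 7.24 ± 0.37 log2 in 4-week iCMs, against 5.25 ± 0.32 log2 in 2-week iCMs (SD, n = 3 each); its 2-week, CM and CF means were all under background, so the rise was at least 2.12-fold (adjusted p = 1.71e-06). Marchf11, a membrane ubiquitin ligase, rose by 1.60 ± 0.25 log2 (adjusted p = 0.00041), while a second probe set changed by 0.17 log2. The parvalbumin gene Pvalb, another fast muscle calcium buffer, chosen after its values were seen, averaged 10.86 ± 0.22 log2 in 4-week iCMs, against 9.82 ± 0.53 log2 in 2-week iCMs (SD, n = 3 each) (adjusted p = 0.00534), against 6.88 log2 in CM.

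**Figure D3:**
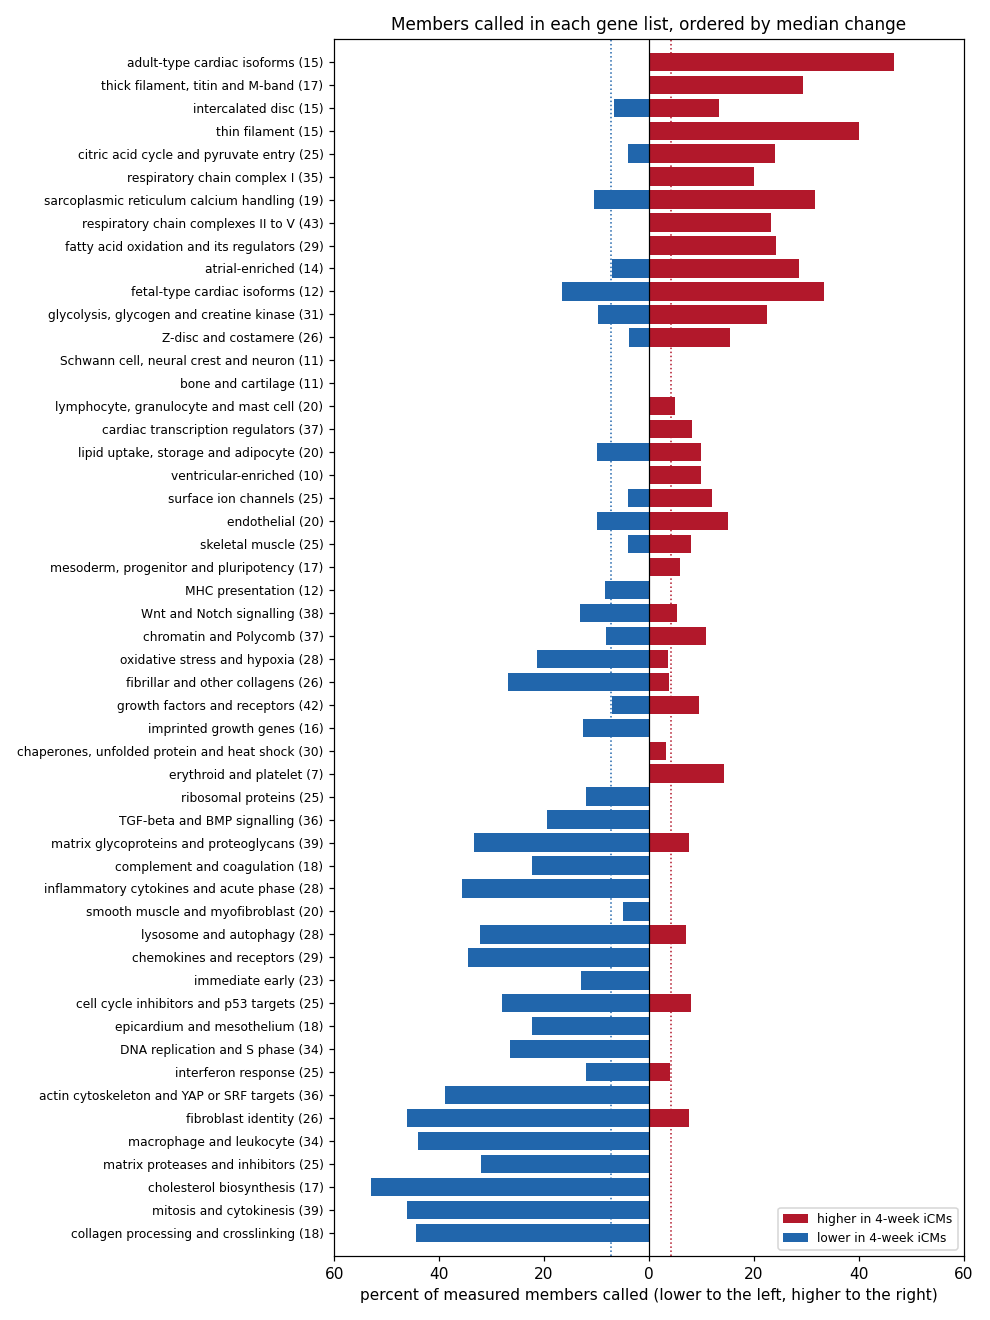
Percent of the measured members of each of 52 gene lists called higher (right) or lower (left) in 4-week than in 2-week iCMs, ordered by median change, with the number measured in brackets. Dotted lines are the shares over all genes, 4.29% higher and 7.24% lower; filament, adult-type and mitochondrial lists extend to the right, and collagen processing, mitosis, cholesterol and macrophage lists to the left.

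Fibroblast and matrix genes fell, the enzymes that finish and crosslink collagen among them. Of 18 collagen processing genes 8 fell and 0 rose (median -0.39 log2), and of 26 collagen chains 7 fell and 1 rose (median -0.05 log2). When each iCM array was left out, 4 to 7 collagen processing genes fell (4 without the third 2-week or the second 4-week array, 5 without the second 2-week or the third 4-week array), and 3 collagen chains fell without the second 2-week array. Lox, lysyl oxidase, which crosslinks collagen and elastin, was 7.78, 7.97 and 7.62 log2 in the 4-week iCM arrays, against 9.06, 9.94 and 9.51 log2 in the 2-week arrays. It fell 3.28-fold (1.71 ± 0.29 log2, adjusted p = 0.0008) to near the CM mean of 7.22 log2, and GFP- cells changed by 0.05 ± 0.29 log2. P4hb and Plod3, which hydroxylate collagen chains, fell by 0.54 ± 0.10 log2 (adjusted p = 0.00109) and 0.46 ± 0.09 log2 (adjusted p = 0.00311). Col1a1, the main fibrillar chain, was 8.88, 8.83 and 8.99 log2 in the 4-week iCM arrays, against 9.87, 9.97 and 9.85 log2 in the 2-week arrays. It fell by 1.00 ± 0.12 log2 (adjusted p = 3.82e-05) and Col1a2 by 0.70 ± 0.12 log2 (adjusted p = 0.000732), while Col3a1 changed by -0.28 ± 0.10 log2 (adjusted p = 0.0756). The chain that rose was Col4a6, of basement membranes, by 0.57 ± 0.11 log2 (adjusted p = 0.00225).

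Among 39 matrix glycoproteins and proteoglycans 13 fell and 3 rose (median -0.13 log2). Fn1, fibronectin, was 11.03, 11.15 and 11.05 log2 in the 4-week iCM arrays, against 11.92, 12.33 and 12.10 log2 in the 2-week arrays. It fell by 1.04 ± 0.15 log2 (adjusted p = 0.000258), biglycan (Bgn) by 1.09 ± 0.18 log2 (adjusted p = 0.000542), fibulin 2 (Fbln2) by 1.23 ± 0.19 log2 (adjusted p = 0.000433) and nidogen (Nid1) by 1.22 ± 0.17 log2 (adjusted p = 0.000142). Lum, lumican, was among those that rose; it averaged 6.82 ± 0.40 log2 in 4-week iCMs, against 5.60 ± 0.06 log2 in 2-week iCMs (SD, n = 3 each), with the 2-week mean under background and a fold of at least 1.59. It rose more in GFP- cells, to 10.16 log2 at 4 weeks, against 6.85 log2 at 2 weeks. Of 25 matrix proteases and inhibitors 8 fell and 0 rose (median -0.34 log2), among them Timp1 by 1.00 ± 0.15 log2 (adjusted p = 0.00028), Mmp23 by 0.99 ± 0.10 log2 (adjusted p = 4.49e-06) and Reck, a membrane inhibitor of metalloproteinases, by 1.25 ± 0.15 log2 (adjusted p = 3.45e-05).

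Of 26 fibroblast identity genes 12 fell and 2 rose (median -0.30 log2). Thy1, a surface protein used to sort cardiac fibroblasts, averaged 10.57 ± 0.31 log2 in 4-week iCMs, against 11.54 ± 0.48 log2 in 2-week iCMs (SD, n = 3 each) (adjusted p = 0.0054), and Pdgfrb fell by 0.82 ± 0.16 log2 (adjusted p = 0.00203). Nt5e, the ectonucleotidase CD73, rose by 0.86 ± 0.13 log2 (adjusted p = 0.000405). Tcf21, the transcription factor of epicardium and resident fibroblasts, fell by 0.81 ± 0.16 log2 (adjusted p = 0.00324). Postn, periostin, a matrix protein of activated fibroblasts, was 6.99, 7.43 and 6.61 log2 in the 4-week iCM arrays, against 7.51, 8.97 and 8.29 log2 in the 2-week arrays. The arrays did not overlap, and it fell by 1.25 ± 0.30 log2 (adjusted p = 0.0095), a call lost without the second 2-week array (adjusted p = 0.0573) and without the third 4-week array (adjusted p = 0.0551). S100a3, a small calcium-binding protein, was among the 15 largest falls at 1.48 ± 0.20 log2 (adjusted p = 9.71e-05), with means of 6.54 log2 in CM and 6.52 log2 in CF. Rcn3, a calcium-binding protein of the secretory pathway, was among the 15 largest falls at 1.34 ± 0.22 log2 (adjusted p = 0.000719). Of 18 epicardial and mesothelial genes 4 fell and 0 rose, with Msln, mesothelin, at 10.16 log2 in 4-week iCMs and 11.06 log2 in 2-week iCMs, against 7.62 log2 in CF. Lists of other cell types gave few calls: 1 rise among 20 lymphocyte, granulocyte and mast cell genes, 1 among 7 erythroid and platelet genes, 1 among 17 progenitor genes, and 0 calls among 11 Schwann cell and neuron genes and 11 bone and cartilage genes. Smooth muscle genes gave 1 call of 20, the matricellular gene Ccn2, which fell by 0.84 ± 0.17 log2 (adjusted p = 0.00284); Acta2, smooth muscle actin, changed by 0.24 ± 0.23 log2 (adjusted p = 0.595).

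Some genes of matrix signals and of the cytoskeleton fell as well. Of 36 TGF-beta and BMP genes 7 fell (19.4%) and 0 rose (median -0.12 log2), beside 7.24% lower over all genes. When any iCM array was left out, 3 or 4 fell. Among the falls were Fst, follistatin, which binds activins, by 1.17 ± 0.27 log2 (adjusted p = 0.00724), and Fstl1 by 0.94 ± 0.18 log2 (adjusted p = 0.00182). Of 36 genes of the actin cytoskeleton and of YAP or SRF targets 14 fell and 0 rose (median -0.24 log2; 9 fell without the second 4-week array), with Capg, a filament-capping protein, 2.02-fold lower (adjusted p = 6.12e-06) and Tagln2 and Cnn2 down by 0.99 ± 0.16 log2 (adjusted p = 0.000482) and 0.92 ± 0.16 log2 (adjusted p = 0.0008). Among 38 Wnt and Notch genes 2 rose and 5 fell (1 fell without the third 2-week or the second 4-week array), with Ccn4, a Wnt target, down by 1.11 ± 0.14 log2 (adjusted p = 6.44e-05) and Lef1, a transcription factor of the pathway, up by 0.54 ± 0.12 log2 (adjusted p = 0.00551). Of 42 growth factors and receptors 4 rose (9.52%) and 3 fell (7.14%), beside 4.29% higher and 7.24% lower over all genes. The rises came to 1 to 3 when each iCM array was left out. Ereg, epiregulin, fell by 0.98 ± 0.19 log2 (adjusted p = 0.00255) in iCMs and rose by 0.97 ± 0.19 log2 in GFP- cells.

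Macrophage genes fell in iCMs. Of 34 macrophage and leukocyte genes 15 fell and 0 rose (median -0.31 log2). Clec4e, a macrophage receptor for microbial glycolipids, was 5.97, 5.78 and 6.35 log2 in the 4-week iCM arrays, against 8.29, 7.99 and 8.41 log2 in the 2-week arrays. Its 4-week mean was under background, which makes the fall at least 4.02-fold (adjusted p = 5.02e-07), and it fell by 2.14 ± 0.17 log2 in GFP- cells. Clec5a, another receptor of myeloid cells, was 6.03, 5.71 and 6.07 log2 in the 4-week iCM arrays, against 7.16, 7.72 and 7.69 log2 in the 2-week arrays, a fall of at least 2.58-fold (adjusted p = 1.72e-06), and Ifitm6, an interferon-induced membrane protein of myeloid cells, was 5.44, 5.56 and 5.82 log2 in the 4-week iCM arrays, against 7.49, 7.19 and 7.65 log2 in the 2-week arrays, at least 2.44-fold lower (adjusted p = 4.49e-06). In both genes the 4-week arrays lay under background, and GFP- cells fell by 1.56 ± 0.14 and 2.15 ± 0.18 log2. Sla, an adaptor of haematopoietic cells, fell by 1.51 ± 0.15 log2 (adjusted p = 6.07e-06), and Emb, embigin, a partner of lactate transporters, by 1.32 ± 0.18 log2 (adjusted p = 0.000107). Csf1r, the receptor that keeps macrophages alive, was 8.23, 8.19 and 8.09 log2 in the 4-week iCM arrays, against 9.11, 9.27 and 9.25 log2 in the 2-week arrays. The groups did not overlap and the gene fell by 1.04 ± 0.13 log2 (adjusted p = 5.11e-05). Cd14, a coreceptor for bacterial lipopolysaccharide, fell 2.54-fold (adjusted p = 1.73e-05) and Itgam, an integrin of myeloid cells, 2.14-fold (adjusted p = 1.44e-05). The general marker Adgre1 changed by 0.29 ± 0.21 log2 (adjusted p = 0.442) and Ptprc, the leukocyte antigen CD45, by -0.32 ± 0.13 log2 (adjusted p = 0.139). Over the marker list of 8 genes 4 fell and 0 rose, and the mean over the list ran from 9.63 to 9.75 log2 in the 4-week iCM arrays and from 10.02 to 10.34 log2 in the 2-week iCM arrays. In GFP- cells it averaged 12.34 log2 at 4 weeks and 12.38 log2 at 2 weeks.

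Chemokines and cytokines fell too. Of 29 chemokines and receptors 10 fell and 0 rose (median -0.21 log2). Ccl2 and Ccl7 attract monocytes. Ccl2 was 10.15, 10.41 and 10.25 log2 in the 4-week iCM arrays, against 11.86, 11.17 and 11.61 log2 in the 2-week arrays, and Ccl7 9.12, 9.15 and 9.21 log2 at 4 weeks, against 10.70, 10.14 and 10.67 log2 at 2 weeks. Ccl2 fell 2.42-fold (adjusted p = 7.63e-06) and Ccl7 2.54-fold (adjusted p = 1.88e-06). Ccl6 and Ccl12, both made by macrophages, fell by 1.22 ± 0.13 log2 (adjusted p = 6.75e-06) and 1.29 ± 0.14 log2 (adjusted p = 9.29e-06). Ccl17, which draws T cells, was 7.55, 7.58 and 7.55 log2 at 4 weeks, against 8.68, 9.46 and 8.82 log2 at 2 weeks, a fall of 1.43 ± 0.18 log2 (adjusted p = 6.5e-05) in which the 4-week arrays were nearly equal. Of 28 inflammatory cytokines and acute phase genes 10 fell and 0 rose (median -0.18 log2), and 3 to 7 fell when each iCM array was left out, the lowest without the third 2-week array. Among the falls were Csf1, the growth factor of macrophages, by 1.05 ± 0.14 log2 (adjusted p = 8.38e-05), and Nfkbia, an inhibitor of NF-kB that the pathway itself induces, by 0.64 ± 0.13 log2 (adjusted p = 0.00388). Tnfsf18, a ligand of T cell costimulation, fell by 1.41 ± 0.18 log2 (adjusted p = 6.73e-05). The part that macrophage transcripts have in the falls of chemokines and cytokines was not tested.

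Endothelial genes gave calls both ways, 3 higher and 2 lower of 20, and 1 or 2 higher and 1 lower when each iCM array was left out. Emcn, endomucin of venous and capillary endothelium, was 7.33, 7.71 and 7.60 log2 in the 4-week iCM arrays, against 6.49, 6.58 and 6.76 log2 in the 2-week arrays. It rose by 0.93 ± 0.16 log2 (adjusted p = 0.000736), and in GFP- cells by 1.97 ± 0.16 log2 to 11.06 log2. Flt1, a VEGF receptor, fell by 0.88 ± 0.16 log2 (adjusted p = 0.00156). Pecam1, which defines endothelium, changed by 0.23 ± 0.14 log2 in iCMs (adjusted p = 0.349) and by 1.69 ± 0.14 log2 in GFP- cells. The 6 endothelial markers averaged 7.10 log2 in 4-week iCMs and 6.71 log2 in 2-week iCMs, beside 8.78 and 7.80 log2 in 4-week and 2-week GFP- cells. Atp6v0d2, a proton pump subunit of macrophages and osteoclasts, and Ms4a4a, a membrane protein of macrophages, likewise rose in both populations. Atp6v0d2 rose by 1.41 ± 0.19 log2 in iCMs and 1.69 ± 0.19 log2 in GFP- cells, and Ms4a4a by 0.84 ± 0.15 and 2.84 ± 0.15 log2. The part that GFP- cells among the isolated iCMs have in rises that both populations share was not tested.

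Cell division transcripts fell in iCMs. Of 39 mitosis and cytokinesis genes 18 fell and 0 rose (median -0.38 log2), with 12 to 18 falls when each iCM array was left out. Of 34 DNA replication genes 9 fell and 0 rose (median -0.23 log2). The replication count was 5 without the second 2-week, the third 2-week or the second 4-week array. Top2a, the topoisomerase that untangles chromosomes, was 6.98, 7.31 and 7.67 log2 in the 4-week iCM arrays, against 8.19, 8.40 and 8.55 log2 in the 2-week arrays. All 4-week arrays lay under the 2-week arrays; the fall was 1.06 ± 0.18 log2, 2.09-fold (adjusted p = 0.000644), and a second probe set changed by -0.13 log2 and was not called. Mki67, the proliferation antigen Ki-67, fell by 0.97 ± 0.16 log2 (adjusted p = 0.000539), cyclin A2 (Ccna2) by 1.04 ± 0.15 log2 (adjusted p = 0.000219) and Bub1, a kinase of the spindle checkpoint, by 1.02 ± 0.19 log2, at least 1.59-fold since its 4-week mean was under background. Mcm6, of the replicative helicase, fell by 0.76 ± 0.12 log2 (adjusted p = 0.000303) and Fen1, the flap endonuclease, by 0.64 ± 0.10 log2 (adjusted p = 0.00038). The inhibitor Cdkn2c, which E2F factors induce in dividing cells, fell with them, by 0.65 ± 0.11 log2 (adjusted p = 0.000618).

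GFP- cells fell by more from a higher level: 39 of 39 mitosis genes and 30 of 34 replication genes fell there, with medians of -1.25 and -0.84 log2. Top2a stood at 7.32 log2 in 4-week and 8.38 log2 in 2-week iCMs, and at 9.41 log2 in 4-week and 10.86 log2 in 2-week GFP- cells, against 10.54 log2 in CM and 10.26 log2 in CF. The difference of the time changes was called, less negative in iCMs, for 24 of the 39 mitosis genes, against 1.86% of all genes in that direction. For genes that neared background in iCMs the size of the fall is bounded by the floor.

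The promoters of 2 of the mitosis genes with the largest falls are shown because many genes of this list share CCAAT boxes and the CHR element (TTTGAA, the cell cycle homology region), through which cell cycle genes are known to be switched off in resting cells. Both are the 150 bases before the start in the RefSeq table of GRCm38.p6, with the letters searched in capitals on either strand. Top2a lies at chr11:99024190-99024339 and Bub1 at chr2:127831860-127832009, both on the minus strand.
Top2a: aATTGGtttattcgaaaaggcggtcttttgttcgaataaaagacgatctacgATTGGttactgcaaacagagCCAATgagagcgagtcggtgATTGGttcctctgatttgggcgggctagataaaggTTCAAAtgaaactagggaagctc
Bub1: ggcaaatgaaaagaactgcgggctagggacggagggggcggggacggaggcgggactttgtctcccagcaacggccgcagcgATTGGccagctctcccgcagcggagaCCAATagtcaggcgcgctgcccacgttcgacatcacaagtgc
The Top2a stretch held 4 CCAAT boxes, read as CCAAT or its complement ATTGG, and the CHR element 23 to 18 bases before the start, read as its complement TTCAAA. The Bub1 stretch held 2 CCAAT boxes. In the 300-base windows from 250 bases before to 50 after the start, 25 of 32 mitosis promoters held CCAAT (78.1%), against 37.9% of 27025 promoters, and 23 held TTTGAA (71.9%), against 18.1%. Of 29 replication promoters 19 held CCAAT (65.5%) and 5 held TTTGAA (17.2%). These are counts of letters, not of bound sites.

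Sterol and lipid synthesis fell. Of 17 cholesterol synthesis genes 9 fell and 0 rose (median -0.36 log2), and 7 fell in GFP- cells. Without the third 2-week or the first 4-week array 4 fell in iCMs, and without the second 2-week array 5. Sqle, squalene epoxidase, was 8.78, 8.92 and 8.85 log2 in the 4-week iCM arrays, against 9.32, 9.41 and 9.37 log2 in the 2-week arrays. It fell by 0.52 ± 0.09 log2 (adjusted p = 0.000726), Sc5d, which acts near the end of the pathway, by 0.69 ± 0.13 log2 (adjusted p = 0.00154), and Srebf2, the transcription factor that turns the pathway on, by 0.45 ± 0.08 log2 (adjusted p = 0.00128). Insig1, which holds that factor back and is itself one of its targets, fell by 0.51 ± 0.10 log2 (adjusted p = 0.00183). Scd2, a desaturase that makes monounsaturated fatty acids, was 8.58, 8.95 and 9.33 log2 in the 4-week iCM arrays, against 10.37, 10.37 and 10.47 log2 in the 2-week arrays. Every 4-week array lay under the 2-week arrays, the fall was 2.73-fold (adjusted p = 6.75e-06), and the related Scd1 fell by 0.75 ± 0.15 log2 (adjusted p = 0.00317). Of 20 lipid uptake and storage genes 2 rose and 2 fell. Vldlr, a lipoprotein receptor of heart and muscle, rose by 0.93 ± 0.16 log2 (adjusted p = 0.0008) to 11.56 log2, against a CM mean of 11.56 log2.

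Among housekeeping and stress groups, 9 of 28 lysosome and autophagy genes fell (5 without the second 4-week array) and 2 rose, with Gusb, beta-glucuronidase, down by 0.67 ± 0.08 log2 (adjusted p = 5.1e-05) and Fbxo32, the muscle ubiquitin ligase atrogin, up by 0.57 ± 0.12 log2 (adjusted p = 0.00478). Of 28 oxidative stress and hypoxia genes 6 fell (1 to 5 when each iCM array was left out) and 1 rose: Adm, adrenomedullin, fell 2.15-fold (adjusted p = 0.00057), while Bnip3, a mitophagy receptor that hypoxia induces, rose by 0.66 ± 0.11 log2 (adjusted p = 0.00057). Of 25 interferon response genes 3 fell and 1 rose, of 18 complement and coagulation genes 4 fell and 0 rose, of 12 MHC presentation genes 1 fell and 0 rose, and of 30 chaperone genes 1 rose and 0 fell. C5ar1, the receptor of a complement fragment on myeloid cells, fell by 0.76 ± 0.10 log2 (adjusted p = 9.24e-05). Of 25 ribosomal protein genes 3 fell (1 or 2 when each iCM array was left out) and 0 rose. The largest fall was that of Rps19, by 0.40 ± 0.09 log2 (adjusted p = 0.00766). Of 25 cell cycle inhibitors and p53 targets 7 fell (3 to 5 when each iCM array was left out) and 2 rose, and of 23 immediate early genes 3 fell and 0 rose. Chromatin genes gave 4 rises (10.8%) and 3 falls (8.11%) of 37. The rises came to 1 without the first 2-week or the second 4-week array. The falls came to 1 without the third 2-week, the first 4-week or the second 4-week array. Suz12, a Polycomb subunit, rose by 0.46 ± 0.09 log2 (adjusted p = 0.00256) and Hdac1, a deacetylase, fell by 0.44 ± 0.08 log2 (adjusted p = 0.00128). Of 16 imprinted growth genes 2 fell, Peg10 by 0.99 ± 0.20 log2 (adjusted p = 0.00262) and Mest by 0.55 ± 0.16 log2 (adjusted p = 0.0305), the last of which was not called without the first 4-week array (adjusted p = 0.154) or any of 3 other iCM arrays. Rnu3a, the U3 small nucleolar RNA that ribosome assembly needs, was among the 15 largest falls at 1.60 ± 0.30 log2 (adjusted p = 0.00154).

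**Figure D4:**
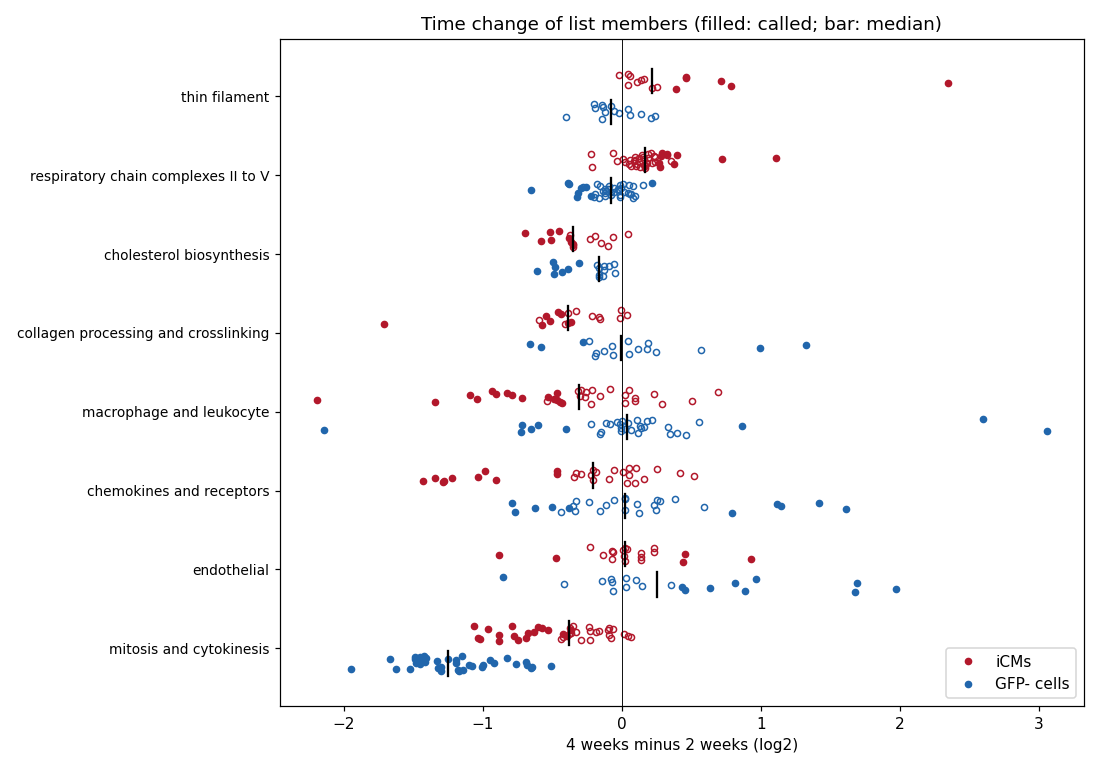
Change from 2 to 4 weeks (log2) of every measured member of 8 lists in iCMs and in GFP- cells; filled points are called, open points are not, and black bars are medians. Mitosis genes fell in both populations, by a median of 0.38 log2 in iCMs and 1.25 log2 in GFP- cells, and of 15 thin filament genes 6 were called higher in iCMs and 0 in GFP- cells.

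Probe sets for microRNA genes, examined after their values were seen, gave 14 rises (4.88%) and 5 falls (1.74%) among 287 measured, beside 4.29% higher and 7.24% lower over all genes. Of the 287, 146 were above background. The share of rises was near that of all genes, so the members below are single genes and no result about microRNA genes. Besides Mir208a the rises included 3 let-7 genes that lie within 2261 bases of each other on the minus strand of chromosome 13. The let-7 family is known to accumulate as cells leave the embryonic state and, in heart cells from human stem cells, to go with maturation. The mature strands are shown to display their common seed, in capitals (bases 2 to 8), from RefSeq on GRCm38.p6.
let-7a-5p: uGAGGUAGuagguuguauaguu
let-7d-5p: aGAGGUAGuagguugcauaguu
let-7f-5p: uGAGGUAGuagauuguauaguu
The probe set of Mirlet7f-1 was 6.88, 6.81 and 6.59 log2 in the 4-week iCM arrays, against 5.43, 6.17 and 5.83 log2 in the 2-week arrays, and the rise was 0.95 ± 0.18 log2, at least 1.52-fold over background (adjusted p = 0.00149). Mirlet7a-1 rose by 0.55 ± 0.13 log2 (adjusted p = 0.0112) and Mirlet7d by 0.58 ± 0.15 log2 (adjusted p = 0.0133). Both calls were lost without the first 4-week array (adjusted p = 0.0585 and 0.0627) and without the third 2-week array (adjusted p = 0.0678 and 0.0921). All 3 rose in GFP- cells as well, by 0.40 ± 0.13, 0.73 ± 0.15 and 1.43 ± 0.18 log2. These probe sets may read the precursor or a longer host transcript, and mature microRNA was not measured.

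The cells in which reprogramming failed also differed between 2 and 4 weeks, so each change was set against theirs in the same model. In GFP- cells 3465 genes were called between the times (17.4%). Of the 855 genes that rose in iCMs, 318 rose in GFP- cells (37.2% of the rises in iCMs and 22.3% of those in GFP- cells) and 17 fell. Of the 1442 that fell, 653 fell in GFP- cells (45.3% of the falls in iCMs and 32.0% of those in GFP- cells) and 35 rose. The difference of the time changes was called for 785 genes (3.94%; 1.86% higher and 2.08% lower), and 330 of the genes called in iCMs were among them. Of the 39 genes that rose at least 2-fold, 25 had a called difference, and of the 62 that fell at least 2-fold, 29. Nebl differed by 2.21 ± 0.15 log2 (adjusted p = 1.5e-07), with a change of 0.14 ± 0.11 log2 in GFP- cells. Ppp1r3a differed by 2.25 ± 0.22 log2 (adjusted p = 1.07e-05), a fitted value, since both GFP- means were under background. Mlf1, a nucleocytoplasmic shuttling protein of heart and muscle, was 10.42, 10.62 and 10.45 log2 in the 4-week iCM arrays, against 8.72, 9.33 and 9.14 log2 in the 2-week arrays. It differed by 1.74 ± 0.17 log2 (adjusted p = 1.12e-05).

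**Figure D5:**
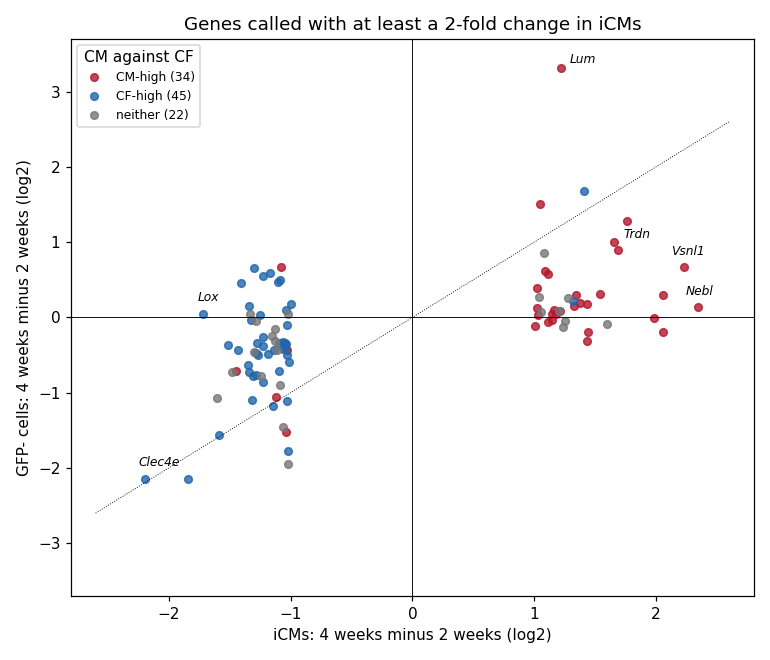
Change from 2 to 4 weeks in GFP- cells (vertical, log2) against that in iCMs (horizontal, log2) for the 101 genes called with at least a 2-fold change in iCMs, coloured by their call between CM and CF; the dotted line marks equal changes. Nebl lies near 0 in GFP- cells, Trdn and Ppargc1a rose in both populations, Clec4e lies near the line of equal changes, and Lum rose more in GFP- cells.

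In some genes with a difference below 0 the populations moved in opposite directions or GFP- cells moved more. Bex1, an adaptor protein expressed in neurons and in failing hearts, was 8.30, 8.98 and 9.44 log2 in the 4-week iCM arrays, against 9.85, 9.58 and 9.96 log2 in the 2-week arrays. It fell by 0.89 ± 0.19 log2 (adjusted p = 0.00504), with a change of -0.59 log2 without the first 4-week array, while GFP- cells rose by 1.26 ± 0.19 log2; the difference was -2.16 ± 0.27 log2 (adjusted p = 0.000168). Tmem45a, a transmembrane protein, fell by 0.95 ± 0.13 log2 (adjusted p = 0.000134) and rose by 1.03 ± 0.13 log2 in GFP- cells. Il6, the interleukin, averaged 5.76 log2 in 4-week iCMs, under background, against 6.38 log2 in 2-week iCMs. It fell by at least 1.16-fold (adjusted p = 0.044), a call lost when any iCM array was left out (adjusted p = 0.0505 to 0.154) and under quantile or cyclic loess normalization, and it rose by 1.51 ± 0.19 log2 in GFP- cells, a difference of -2.13 ± 0.27 log2 (adjusted p = 0.000188). Ms4a4a differed by -2.0 ± 0.21 log2 and Lum by -2.09 ± 0.24 log2. For Il6 and Lum 1 iCM mean was under background, so these sizes are fitted values and not measured differences.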

How the data were processed

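RNA of 18 cell preparations in 6 groups of 3 was measured on a mouse gene array, 1 array per sample. The deposited table holds log2 values for 28682 probe sets made by the authors with RMA, per the submitters' processing notes. The software version, the background step and the array annotation of that run are not given in the sources used here. In the platform annotation 21755 probe sets name 1 gene, 1592 several and 5335 none. Probe sets with 1 gene were kept, and of several for a gene the one with the highest mean over all arrays, which gave 19912 genes.

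The values were used as deposited in limma 3.58.1 (R 4.3.3), with 1 mean per group over all 18 arrays, empirical Bayes variances and two-sided p-values adjusted by the Benjamini-Hochberg method over 19912 genes. The difference of the time changes of iCMs and GFP- cells was fitted in the same model. On simulated data for the iCM comparison over 19912 genes, 63% of changes of 0.5 log2 and 96% of changes of 1 log2 were recovered, with 9 false calls. The simulation changed 100 genes by each size, fewer than were called in the data, and drew noise independently for each array. These rates therefore need not hold for the real comparison. A group mean under 6.16 log2 (the smallest 25th percentile among the arrays) counts as not above background, and a fold that rests on such a mean is a lower bound, with each array of the dim group taken at that level or at its own value where higher.

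Samples were grouped by their labels. The comparison, the 52 gene lists (1196 genes measured) and the background level were chosen with earlier results of these data known, so no list is independent evidence. Genes are named by a rule: the 15 largest rises and the 15 largest falls whose arrays did not overlap, up to 5 called members per list, 30 measured anchors and the 8 largest differences between the time changes. Of the 225 genes so chosen, the text gives mainly those whose call held when each iCM array was left out. Another 17 choices were made after the values were seen, among them Mir208a, the let-7 genes, Pvalb, Bves, Corin, Enpep, Serpina5 and Dydc1. The number of arrays limits the precision. Alternatives were other normalizations, a low-signal filter, an intensity trend, array weights, a replicate block, a 2-fold minimum, only the groups compared, and each array left out.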

Additional observations from a re-analysis of the deposited data

Results flagged for a closer look

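The time change of iCMs differed from that of GFP- cells, at an adjusted p under 0.05 in limma's test of the difference over all 19912 genes, in 65 of the named genes. Differences are the change of iCMs minus the change of GFP- cells. For Rgs7, Mlip, Mir208a, Lum and Il6 an iCM mean, and for Ppp1r3a, Rgs7, Mlip, Mir208a, Mhrt, Myl1 and Xirp2 a GFP- mean, was under background, so these sizes are fitted values only. No cause was tested, and groups of 3 arrays are too small for a test of single outlying arrays. In the sarcomere and the Myh6 locus the differences were 2.21 log2 for Nebl, 1.26 log2 for Mhrt, 1.18 log2 for Actn2, 1.12 log2 for Myom1, 1.10 log2 for Mir208a, 0.84 log2 for Tmod1, 1.01 log2 for Xirp2, 0.58 log2 for Myl2 and 0.52 log2 for Myh7. For calcium handling and channels they were 1.77 log2 for Pln, 1.64 log2 for Hrc, 1.14 log2 for Kcnj3 and 0.34 log2 for Atp2a2. Myl2 and Atp2a2 were not called in iCMs alone, and both fell in GFP- cells.

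In fast skeletal muscle genes the differences were 1.23 log2 for Myl1 and 1.07 log2 for Tnnt3. Energy genes gave 2.25 log2 for Ppp1r3a, 1.37 log2 for Cox7a1, 1.17 log2 for Cox8b, 0.82 log2 for Esrrg, 0.79 log2 for Pgam2, 0.65 log2 for Acadl and 0.57 log2 for Idh3a. Among other rises of iCMs they were 1.99 log2 for Rgs7, 1.74 log2 for Mlf1, 1.68 log2 for Marchf11, 1.56 log2 for Vsnl1, 1.18 log2 for Mlip, 1.12 log2 for Dydc1, 1.36 log2 for Serpina5, 1.27 log2 for Nt5e, 1.03 log2 for Corin, 0.91 log2 for Bves, 0.79 log2 for Lef1, 0.75 log2 for Col4a6 and 0.55 log2 for Suz12.

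Below 0, matrix and fibroblast genes gave -1.78 log2 for Nid1, -1.76 log2 for Lox, -1.58 log2 for Bgn, -1.49 log2 for Rcn3, -1.47 log2 for Fstl1, -1.28 log2 for Reck, -1.18 log2 for Timp1, -1.13 log2 for Fn1, -0.65 log2 for Mmp23 and -1.75 log2 for Fst. Lum differed by -2.09 log2 although it rose in both populations. Cytokines, chemokines and receptors gave -2.13 log2 for Il6, -1.86 log2 for Tnfsf18, -1.94 log2 for Ereg, -1.57 log2 for Adm, -0.99 log2 for Ccl17, -0.84 log2 for Ccl6, -0.94 log2 for Ccl2, -0.72 log2 for Ccl7, -0.71 log2 for Csf1 and -0.63 log2 for C5ar1. The endothelial genes gave -1.46 log2 for Pecam1, -1.24 log2 for Flt1 and -1.04 log2 for Emcn. The others were -2.16 log2 for Bex1, -2.0 log2 for Ms4a4a, -1.98 log2 for Tmem45a, -1.71 log2 for Mest, -1.38 log2 for Pdlim1 and -1.15 log2 for Sla.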

How the results depend on the processing

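The named genes were chosen in part because their calls held, so their stability is no result. Among them Tnni3, Cacna1c, Mest, Il6, Mirlet7a-1, Mirlet7d, Dmd, Xirp2, Srl, Postn and Corin lost the call under at least 1 alternative run for single genes, which did not include the 2-fold minimum. Tbx5 and Sln passed under several alternatives, the first at -0.31 log2 (adjusted p = 0.0394) under quantile normalization and the second at 0.83 log2 (adjusted p = 0.0326). Adgre1, Ckm, Col3a1, Myl2, Myl7, Nkx2-5, Pecam1 and Ptprc, not called in the main fit, passed with array weights. Myl2 also passed under cyclic loess (adjusted p = 0.0231) and Myl7 in a fit of only the groups compared (adjusted p = 0.0364). Nkx2-5 also passed without the first 2-week array and Col3a1 without the first 4-week array.

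A 2-fold minimum left 101 genes in iCMs (39 higher, 62 lower), 308 in GFP- cells (162 higher, 146 lower) and 222 for the difference of the time changes (72 higher, 150 lower). With array weights and no fold minimum the counts were 5985 (2653 higher, 3332 lower), 6087 (2472 higher, 3615 lower) and 4191 (2240 higher, 1951 lower). Quantile normalization gave 1404 higher genes in iCMs, a fit of only the groups compared gave 1486 called and 487 higher, and cyclic loess gave 642 lower for the difference of the time changes. The cause of these shifts was not tested.

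Leaving out 1 array at a time gave 1289 to 1958 genes called in iCMs (389 to 789 higher, 861 to 1354 lower), 2350 to 3677 genes called in GFP- cells (910 to 1704 higher, 1367 to 1973 lower) and 514 to 1004 genes called for the difference of the time changes (239 to 396 higher, 260 to 608 lower). The lowest counts came without the second 4-week iCM array (1289 called in iCMs), without the third 2-week iCM array (861 lower in iCMs), without the third 2-week GFP- array (910 higher in GFP- cells) and without the first 4-week GFP- array (514 called for the difference). Without the first 2-week GFP- array 945 were higher in GFP- cells and 239 for the difference. The shift on the scale between CF and CM for genes high in CM was 20.6 percentage points over genes at least 8-fold apart and 7.91 points as a mean of values limited to the range of the scale; without each array it was 11.1 to 14.9 points, with 0.2 the smallest p then possible. For genes high in CF it was 8.92 to 12.4 points.

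With the replicate number as a block 2420 genes were called in iCMs (920 higher), 3615 in GFP- cells and 879 for the difference of the time changes. Deviations of 4-week and 2-week iCM arrays with the same number correlated at 0.454, 0.345 and 0.084. Each 4-week array correlated best with the 2-week array of its own number, but not every pair passed 0.1 and the labels tie the numbers to nothing shared, so no pairing was assumed.

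Signal limits the rest: genes near 6.16 log2 give only bounds, and genes near the array maximum cannot show a rise.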

Other observations

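Several genes outside the lists also rose in iCMs; they were chosen after their values were seen and are given as values. Bves, a membrane protein of heart and skeletal muscle that binds cyclic AMP, was 8.82, 9.38 and 8.97 log2 in the 4-week iCM arrays, against 7.83, 8.35 and 8.13 log2 in the 2-week arrays, and it rose by 0.96 ± 0.14 log2 (adjusted p = 0.000257), with 11.20 log2 in CM. Corin, the protease that activates the atrial natriuretic peptide, was 9.90, 10.09 and 9.15 log2 in the 4-week iCM arrays, against 8.47, 9.19 and 8.79 log2 in the 2-week arrays, and rose by 0.89 ± 0.20 log2 (adjusted p = 0.00645), whereas the peptide gene Nppa fell. The 4-week arrays of Corin ran from below the highest 2-week array upward, so these groups overlapped, and without the second 4-week array the adjusted p was 0.0509.

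Other such genes stood higher in iCMs than in CM or CF. Enpep, an aminopeptidase that cleaves angiotensin II, was 11.88, 11.96 and 11.71 log2 in the 4-week iCM arrays, against 10.13, 11.44 and 10.90 log2 in the 2-week arrays, and rose by 1.02 ± 0.21 log2 (adjusted p = 0.00297), or by 0.68 log2 without the first 2-week array, with 8.87 log2 in CM and 6.09 log2 in CF. Serpina5, a serine protease inhibitor, was 8.68, 9.21 and 8.39 log2 in the 4-week iCM arrays, against 7.68, 7.26 and 7.62 log2 in the 2-week arrays, and rose by 1.24 ± 0.16 log2 (adjusted p = 6.1e-05), with 6.48 log2 in CM and 6.44 log2 in CF. Dydc1 was 8.46, 8.75 and 9.06 log2 in the 4-week iCM arrays, against 7.50, 7.31 and 7.85 log2 in the 2-week arrays, and rose by 1.20 ± 0.14 log2 (adjusted p = 2.64e-05). No explanation was tested for these genes.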
